A study of Monodelphis domestica and Mus musculus with 2 samples.

Results

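Kainate receptors are glutamate-gated ion channels assembled from the subunits of a family of 5 genes, Grik1 to Grik5, and the members of this family were followed through the primary visual cortex (V1) of a gray short-tailed opossum and a mouse. The genes were taken by symbol, without regard to case. Of 30613 opossum features 4 carried such a symbol, since none carried GRIK5, although most opossum features carry no symbol and one of them could be this gene, and of 61317 mouse features 5 did. The study asked how cell types of V1 are arranged in a marsupial and in a placental mammal. It measured 1 chip from 1 animal per species with Stereo-seq. Each chip held coronal slices embedded together, which were trimmed to smaller pieces in the opossum only. In this method unique molecular identifiers (UMIs) keep their position on a chip and are summed over segmented cells.

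The opossum (Monodelphis domestica) was a male of 6 months from a laboratory colony, with an RNA integrity number of 7.1. The mouse was a male wild-type C57BL/6J animal at about postnatal day 40, with an RNA integrity number above 9. With 1 animal per species no test was possible, so neither cells nor V1 regions were treated as replicates and no p-value is given. Intervals are exact, at 95%, and cover counting error only. Levels are UMIs of a gene per 10000 UMIs of all genes, and levels were not compared between genes, because transcripts differ in length, or between species, because the gene models, the RNA quality and the capture differed.

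Grik1, Grik2 and Grik3 encode the subunits that can form a channel without the other members, long called the low-affinity subunits. Grik4 and Grik5 encode the high-affinity subunits, which need a partner from the first group to reach the surface as a working receptor. Kainate receptors sit on both sides of the synapse, where they carry slow excitatory currents and tune transmitter release, and in cortex they occur in principal cells and in interneurons. The Neto proteins are their auxiliary subunits, and C1ql2 and C1ql3 are secreted proteins that recruit them to synapses.

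In the mouse genome GRCm39 all 5 are protein-coding genes, and the UMIs came from polyadenylated RNA counted over the gene. Grik1 lies on chromosome 16 from 87692788 to 88087153 on the minus strand. Grik2 lies on chromosome 10 from 48970929 to 49664880 on the minus strand. Grik3 lies on chromosome 4 from 125384202 to 125607966 on the plus strand. Grik4 lies on chromosome 9 from 42429431 to 42856154 on the minus strand, and Grik5 lies on chromosome 7 from 24709269 to 24772708 on the minus strand. Of the genes that overlap them on the other strand, Zfp574, which overlaps Grik5, had 219 UMIs in V1, and each of the others had 33 or fewer. The opossum features were ENSMODG00000020977 (GRIK1), ENSMODG00000018065 (GRIK2), ENSMODG00000017802 (GRIK3) and ENSMODG00000013079 (GRIK4).

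V1 held 4806 opossum cells in 3 regions with 6933475 UMIs, and 9127 mouse cells in 4 regions with 12522687 UMIs. The median per cell was 1326 UMIs for the opossum and 1305 for the mouse. Opossum region 3 was the shallowest, with a median of 1048 UMIs per cell. The 2 libraries shared 0 cell names. Layer genes were followed along the same depth axis. The direction of that axis was set by labels transferred from transcriptomes that may include these genes, so they are no independent check of position. In both species Cux1 and Cux2 were lower, and Fezf2, Foxp2, Tle4 and Mbp higher, in the deep part of V1 than in the top part in every region. The subclass labels came from the authors, who transferred them from whole transcriptomes, so a level by label is a description. Of 13 marker lists matched to a label in the opossum 11 were highest in their own label, and of 14 in the mouse 12 were. The opossum exceptions were the L5NP list, which was highest in L6CT at 5.27 against 3.66 in L5NP, and the upper intratelencephalic list, which was highest in IT_B and not in IT_A. The mouse exceptions were the Sst list, highest in Lamp5, and the Lamp5 list, highest in L2/3. The labels were not pure, because in the mouse a list of 5 glutamatergic markers ranged over the labels from 12.9 in Vip cells to 20.0 in L6IT cells. In the opossum 331 of 565 cells labelled OD (oligodendrocytes), 142 of 354 labelled Pvalb, 83 of 171 labelled Sst and 19 of 38 labelled Vip carried a glutamatergic class label. So did 50 of 65 cells labelled Endo (endothelial cells) and 70 of 100 labelled OPC (oligodendrocyte precursors).

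The 4 subunits named in the opossum and the 5 of the mouse were all detected in V1. Opossum GRIK2 had 3.17 UMIs per 10000 (interval 3.04 to 3.30), with 3.51, 3.26 and 2.28 in the 3 regions. Opossum GRIK3 had 1.97 (1.87 to 2.08), with 2.07, 1.96 and 1.78 in the regions. Opossum GRIK4 had 1.49 (1.40 to 1.59), with 1.63, 1.51 and 1.17. All were lowest in region 3, the region with the fewest UMIs per cell. Opossum GRIK1, with 39 UMIs in 33 cells, had 0.0562 (0.0400 to 0.0769), which leaves little room to describe it further. In the mouse, Grik1 had 0.393 (0.359 to 0.429), and its 4 regions ranged from 0.352 to 0.436. Mouse Grik2 had 1.62 (1.55 to 1.69), and its regions ranged from 1.27 to 1.84. Mouse Grik3 had 0.651 (0.607 to 0.697), with regions from 0.601 to 0.676. Mouse Grik4 had 0.502 (0.464 to 0.543), with regions from 0.409 to 0.581. Mouse Grik5 had 1.16 (1.10 to 1.22), with regions from 1.00 to 1.29. Outside V1 on the same chip, opossum GRIK3 was at 0.999 and GRIK4 at 2.31, so GRIK3 was higher and GRIK4 lower in V1 than in the rest of the tissue.

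The UMIs were unevenly spread over cells in the opossum. GRIK2 had 2.38 UMIs per cell that held any, with 30 in the richest cell. GRIK3 had 2.06, with 25 in the richest cell, and GRIK4 had 1.96, with 27. In the mouse the same quantity lay between 1.33 for Grik4 and 1.60 for Grik2, and no cell held more than 12 UMIs of a member. The counting intervals take UMIs as independent and so are too narrow where a few cells carry many of them. Counts without the richest cells are therefore given beside the results they change.

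The largest difference with depth among the members was that of Grik3, a channel-forming subunit known for its low sensitivity to glutamate, which rose towards the bottom of V1 in both species. V1 was cut into 3 parts of equal height (top, middle and deep). Opossum GRIK3 had 0.513 in the top part (0.421 to 0.620), 1.15 in the middle part and 3.85 in the deep part (3.62 to 4.10), a 7.51-fold rise (6.15 to 9.24). Region by region it went from 0.625 to 4.15, from 0.497 to 3.75 and from 0.309 to 3.44, so every deep level lay above every top level. On the log2 scale the ratio of deep over top was 2.91 (2.62 to 3.21), and 14th from the highest of 10751 genes tested. With each cell counted once, whatever its number of UMIs, the ratio was 1.97, and between the deeper and the upper of 2 equal parts it was 2.19. Mouse Grik3 had 0.286 in the top part (0.236 to 0.345), 0.626 in the middle part and 0.987 in the deep part (0.897 to 1.08), a 3.45-fold rise (2.79 to 4.28). Region by region it went from 0.277 to 0.985, from 0.290 to 1.07, from 0.315 to 0.919 and from 0.273 to 0.985, again without overlap. Its log2 ratio was 1.78 (1.48 to 2.10), rank 53 of 13619 genes from the highest.

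The rise was followed in 10 depth bins. Opossum GRIK3 stayed at or below 0.539 in the top 3 bins, lay between 0.995 and 1.05 in bins 4 to 6, reached 1.75 in bin 7 and 2.04 in bin 8, and then stood at 4.88 in bin 9 and 5.07 in bin 10. Mouse Grik3 went from 0.270 in bin 3 to 0.412 in bin 4, 0.656 in bin 6 and 1.03 in bin 7, had 0.832 in bin 8, and ended at 1.22 in bin 10. The mean relative depth of the GRIK3 UMIs, with 0 at the top and 1 at the bottom, was 0.702 ± 0.0157 in the opossum (SD, n = 3 regions of 1 animal) and 0.628 ± 0.0235 for Grik3 in the mouse (SD, n = 4 regions of 1 animal).

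**Figure D1:**
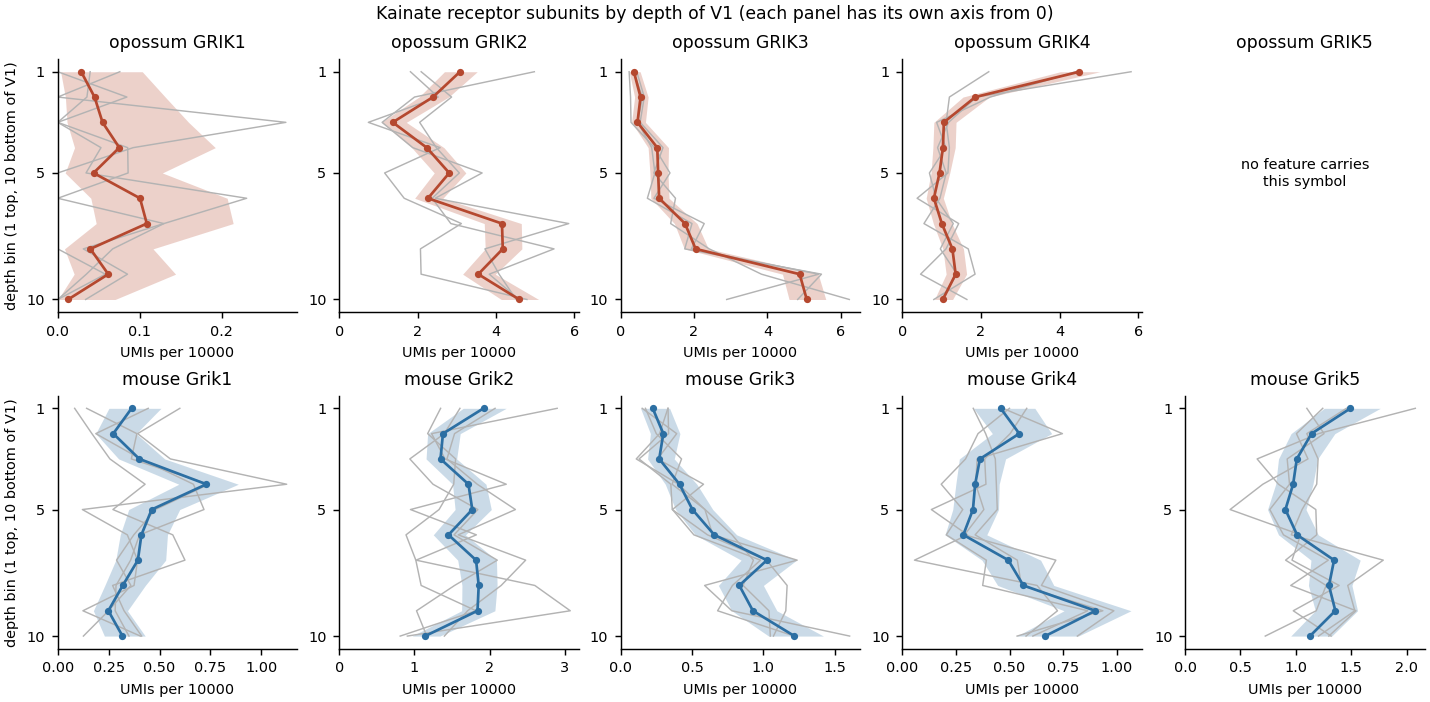
Level of each subunit (UMIs per 10000, horizontal axis) in 10 depth bins of V1 (vertical axis, 1 at the top) for the opossum (upper row) and mouse (lower row). Coloured lines are the pooled levels with exact Poisson intervals as bands and grey lines are single V1 regions. Opossum GRIK3 ends at 5.07 in bin 10, opossum GRIK4 starts at 4.50 in bin 1, and mouse Grik1 peaks at 0.730 in bin 4.

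GRIK4, a high-affinity subunit, ran the other way in the opossum. It had 2.46 in the top part (2.25 to 2.68), 0.896 in the middle part and 1.22 in the deep part (1.09 to 1.36), so the deep part was 2.02-fold lower (1.75 to 2.33). The regions went from 2.71 to 1.35, from 2.66 to 1.19 and from 1.57 to 1.03, and each top level lay above every deep level. Most of the difference came from the uppermost bins. The authors drew the V1 regions from the top of layer 2/3, so layer 1 was not covered. Bin 1 held 4.50 UMIs per 10000 and bin 2 held 1.86, while bins 3 to 10 lay between 0.803 and 1.36. Bin 1 was also highest in each region, at 5.81, 4.41 and 2.20. The log2 ratio was -1.01 (-1.22 to -0.81), rank 390 from the lowest. Without the 10 cells that held most GRIK4 UMIs, which carried 15.9% of them, the ratio was -0.69. With each cell counted once, whatever its number of UMIs, it was -0.44 and no longer past 1.5-fold.

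In the mouse Grik4 was higher at the bottom. It had 0.439 in the top part (0.375 to 0.510), 0.341 in the middle part and 0.705 in the deep part (0.630 to 0.787), a 1.61-fold difference (1.33 to 1.95). The regions went from 0.498 to 0.848, from 0.436 to 0.619, from 0.351 to 0.591 and from 0.415 to 0.634. The ranges did not overlap. Its log2 ratio was 0.69 (0.41 to 0.96), and the highest bin was bin 9, at 0.900. The ratio fell just below 1.5-fold, to 0.57, without the 10 richest cells and to 0.54 with each cell counted once. All 3 opossum regions thus had less, and all 4 mouse regions more, of this transcript in the deep part, and the difference between the species was not tested.

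GRIK2, the most widely studied channel-forming subunit, was higher at depth in the opossum. It had 2.40 in the top part (2.19 to 2.61), 2.72 in the middle part and 4.17 in the deep part (3.93 to 4.43), a 1.74-fold difference (1.57 to 1.94). The regions went from 2.66 to 4.29, from 2.34 to 4.54 and from 1.95 to 3.14. The profile dipped to 1.37 in bin 3 and stood at 3.55 to 4.60 from bin 7 on. Its log2 ratio was 0.80 (0.65 to 0.96), rank 647 from the highest, and fell to 0.37, below 1.5-fold, with each cell counted once. Mouse Grik2 had 1.49, 1.75 and 1.61 in the top, middle and deep part, and its regions did not share a direction, with log2 ratios of 0.09, 0.37, -0.14 and 0.13.

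The other mouse subunits showed no change past the fold between top and deep. Grik1, a channel-forming subunit known from interneurons, had 0.392 in the top part, 0.503 in the middle part and 0.293 in the deep part, and its regions gave log2 ratios of -0.37, 0.69, -1.11 and -0.54. Its highest bin was bin 4, at 0.730, and bin 4 was the highest bin in regions 3 and 4 but not in regions 1 and 2. Grik5, the other high-affinity subunit, had 1.16 in the top part, 1.00 in the middle part and 1.30 in the deep part, with log2 ratios of 0.28, 0.20, 0.33 and -0.24. Opossum GRIK1 had 10, 15 and 14 UMIs in the 3 parts, too few for a direction (log2 interval -1.09 to 1.51).

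For a background, every gene with at least 50 UMIs in V1 was treated in the same way and called where the fold was at least 1.5 and the direction shared by every region. In the opossum 863 of 10751 genes (8.03%) were called higher in the deep part and 890 (8.28%) lower, and of the 3 members with 50 UMIs 2 were called higher and 1 lower. In the mouse 579 of 13619 genes (4.25%) were called higher and 775 (5.69%) lower, and of the 5 members 2 were called higher and 0 lower. The median log2 ratio over all genes was 0.025 in the opossum and -0.0055 in the mouse.

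Together the depth profiles changed which subunits made up the kainate receptor UMIs. In the opossum, GRIK3 made 9.47% of them in the top part (exact binomial interval 7.84 to 11.3) and 41.4% in the deep part (39.5 to 43.4). GRIK4 made 45.4% in the top part (42.5 to 48.4) and 13.1% in the deep part (11.8 to 14.5), while GRIK2 made 44.2% and 44.9%. In the mouse, Grik3 made 7.60% in the top part (6.30 to 9.08) and 20.1% in the deep part (18.5 to 21.9), and Grik5 made 30.8% and 26.6%. These shares are shares of UMIs, which depend on transcript length and on no opossum feature being named GRIK5, and are not shares of protein. The summed level of the members in the opossum was 5.42 in the top, 4.84 in the middle and 9.30 in the deep part. In the mouse it was 3.77, 4.22 and 4.90, and sums over different numbers of genes were not compared.

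**Figure D2:**
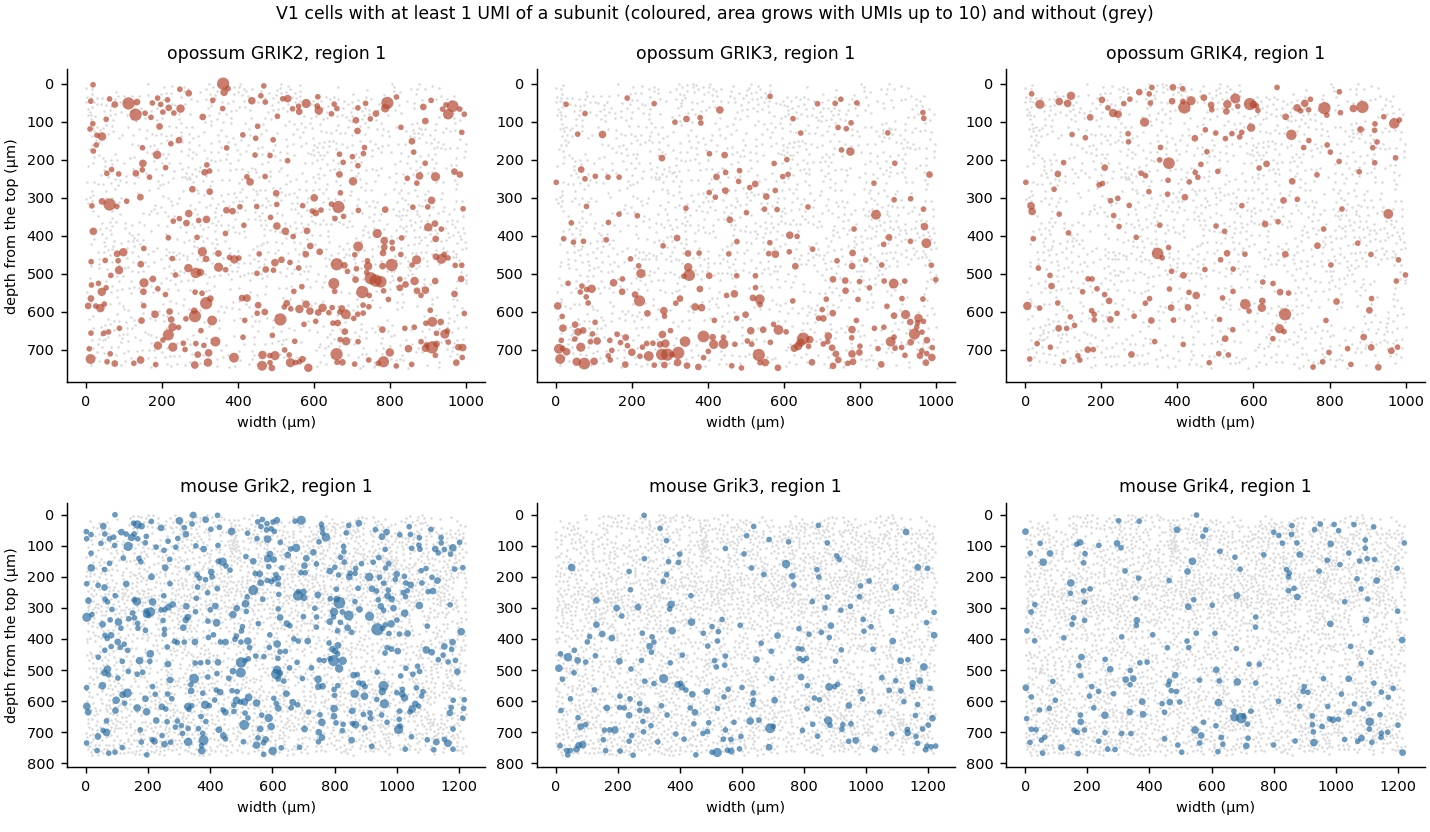
Position of V1 cells (width and depth from the top in µm) in region 1 of each species, with cells that held at least 1 UMI of Grik2, Grik3 or Grik4 in colour and the other cells in grey. Opossum GRIK3 cells lie mostly near the bottom and the largest GRIK4 cells mostly near the top, while mouse Grik2 cells lie through the whole depth.

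Partners of the receptor were counted by the same rule from a list of 10 genes. In the opossum 6 carried a symbol, and 1 was called higher and 2 lower. NETO2, an auxiliary subunit, was higher in the deep part (log2 0.90, interval 0.35 to 1.47). The secreted organizers C1QL3 (log2 -1.18, -1.5 to -0.86) and C1QL2 (log2 -0.99, -1.46 to -0.53) were lower, with every region in the same direction. The regions were unlike for C1QL2, whose mean relative depth was 0.520 in region 1, with 105 of its 217 UMIs, and 0.392 and 0.207 in regions 2 and 3. NETO1, the other auxiliary subunit, had 1.95 in the top part and 2.29 in the deep part (log2 0.23, 0.04 to 0.41). In the mouse 9 of the 10 were found under 1 feature each, and 1 was called higher, Neto1, with 0.846 in the top part and 1.33 in the deep part (log2 0.66, 0.46 to 0.85). Mouse Neto2 was at log2 0.32 (0.05 to 0.58), C1ql2 at 0.22 (-0.48 to 0.94) and C1ql3 at 0.03 (-0.47 to 0.53). The scaffold gene DLG4, which encodes the postsynaptic protein PSD-95, was at -0.45 (-0.57 to -0.34) in the opossum, while mouse Dlg4 had 5.51 in both the top and the deep part (log2 interval -0.08 to 0.08). Its relative Dlg1 was at -0.41 (-0.54 to -0.28) in the mouse, short of the fold.

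The AMPA, NMDA and delta receptor genes, the other branches of the ionotropic glutamate receptor family, were counted beside them. Of 10 tested in the opossum 0 were called higher and 1 lower, GRIA4, an AMPA receptor subunit, with 8.19 in the top part and 2.42 in the deep part (log2 -1.76, -1.89 to -1.63). GRIA2, another AMPA receptor subunit, had a log2 ratio of -0.49 (-0.58 to -0.41), short of the fold. GRIN2C, from 72 UMIs, had 0.99 (0.03 to 2.05) and regions that disagreed. Of 12 tested in the mouse 0 were called in either direction, and the farthest from 0 was Gria4 at -0.48 (-0.63 to -0.33). The median log2 ratio of these genes was -0.28 in the opossum and -0.30 in the mouse, against 0.80 over the 3 opossum members and 0.16 over the 5 mouse members tested. Each member median is the value of a single gene, GRIK2 in the opossum and Grik5, which was not called, in the mouse. Opossum GRIK4 went the other way, at -1.01.

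**Figure D3:**
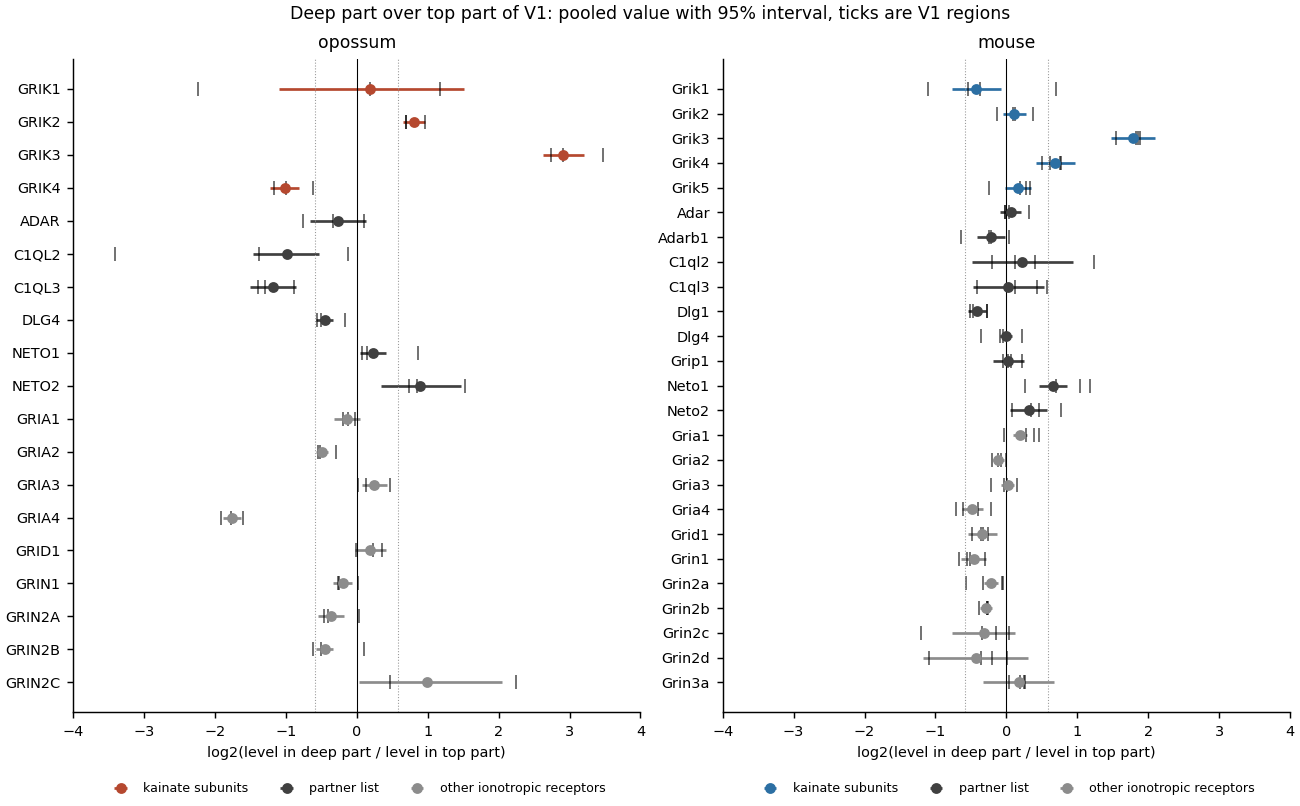
Log2 ratio of the level in the deep part over the level in the top part of V1 (horizontal axis) for the kainate subunits, the partner list and other ionotropic glutamate receptors with at least 30 UMIs. Points are pooled values with 95% intervals, black ticks are V1 regions, and dotted lines mark 1.5-fold. GRIK3 stands at 2.91 and GRIK4 at -1.01 in the opossum, and Grik3 at 1.78 and Grik4 at 0.69 in the mouse.

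By cell class, the opossum GRIK3 rise was largest in glutamatergic cells. In cells of that class label it went from 0.401 in the top part to 4.35 in the deep part, a 10.8-fold difference, while in GABAergic cells it went from 0.942 to 2.31 and in nonneuronal cells from 1.36 to 1.85 (log2 interval -0.24 to 1.17). Opossum GRIK2 was higher at depth in glutamatergic cells, from 2.24 to 4.54, while it had 6.80 and 4.80 in GABAergic cells (log2 -0.50, -0.99 to -0.01, from 65 and 81 UMIs) and 1.69 and 1.88 in nonneuronal cells (log2 0.15, -0.48 to 0.82). A single nonneuronal cell held 11 GRIK2 UMIs, and without it that class went from 1.10 to 1.88 (log2 0.77, 0.03 to 1.57). Opossum GRIK4 went from 2.41 to 1.24 in glutamatergic, from 3.45 to 1.24 in GABAergic and from 2.51 to 1.09 in nonneuronal cells. A single GABAergic cell held 17 GRIK4 UMIs, and without it that class went from 1.70 to 1.24 (log2 -0.45, -1.46 to 0.59), and both values without a cell were chosen after seeing the data. Mouse Grik3 rose in each class, from 0.302 to 1.15 in glutamatergic, from 0.322 to 0.879 in GABAergic and from 0.220 to 0.738 in nonneuronal cells. The GABAergic values came from 6 and 20 UMIs, with a log2 interval of 0.08 to 3.06. Mouse Grik4 went from 0.440 to 0.85 in glutamatergic cells, and had 0.268 and 0.308 in GABAergic cells (log2 interval -1.67 to 2.20, from 5 and 7 UMIs) and 0.461 and 0.495 in nonneuronal cells (-0.61 to 0.87). The part that RNA from neighbouring cells had in a class was not tested. Mouse Grik1 ran in opposite directions, falling from 0.371 to 0.205 in glutamatergic cells and going from 0.912 to 1.76 in GABAergic cells. The latter came from 17 and 40 UMIs, with a log2 interval of 0.10 to 1.86.

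By subclass label, opossum GRIK3 was highest in L6CT cells. The order was led by L6CT (layer 6 corticothalamic cells) at 6.53 (6.04 to 7.06), with 6.56, 7.72 and 4.97 in the regions, against 1.21 in the other labelled cells. That 5.39-fold excess ranked 14th of 10751 genes, where 5.64% of genes were called higher in L6CT. The label L5NP (near-projecting cells of layer 5), whose markers were higher in L6CT cells, followed at 4.39 (2.96 to 6.27), cells labelled Sst at 3.83 (3.08 to 4.71) and IT_C (deep intratelencephalic cells) at 2.63 (2.16 to 3.17), and the intervals of neighbours in this order overlapped. L5PT (pyramidal tract cells of layer 5), also a deep label, came below IT_C. The intratelencephalic labels IT_A and IT_B closed the list, at 0.593 and 0.377. After thinning every cell to 300 UMIs, 12.3% of L6CT cells held a GRIK3 UMI (exact interval 9.70 to 15.3), against 10.2% of Sst cells (6.08 to 15.9), 7.69% of IT_C cells (4.69 to 11.8) and 1.59% of Endo (endothelial) cells (0.0402 to 8.53). By this share neither Sst nor IT_C stood apart from L6CT, nor did L5NP at 5.26% (0.644 to 17.7) or L5PT at 4.46% (1.47 to 10.1). Without thinning the shares were 37.7% of L6CT and 7.69% of Endo cells, at median depths of 1750.5 and 936 UMIs.

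The mouse order for Grik3 began with the same 3 labels in another sequence. L5NP had 1.75 (0.95 to 2.93), from 14 UMIs, L6CT had 1.37 (1.21 to 1.54) and Sst had 1.15 (0.77 to 1.67), and their intervals overlapped. L6CT cells had 1.20, 1.82, 1.31 and 1.39 in the regions and a 2.78-fold excess over other labelled cells, rank 38 of 13619, where 2.18% of genes were called. L4 cells were at 0.303 and L2/3 cells at 0.363. Lamp5 cells were at 0 of 41620 UMIs, which allows a level of up to 0.721.

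GRIK2 had another order of labels. In the opossum L5PT (pyramidal tract cells of layer 5) held 13.1 (11.6 to 14.6), with 15.4, 12.0 and 7.74 in the regions, 4.67-fold above the other labelled cells and rank 29 of 10751, where 4.91% of genes were called. Of the 115 L5PT cells 54 held at least 1 UMI, and without the richest cell the level was 11.9. Thinned to 300 UMIs, 20.5% of L5PT cells held a GRIK2 UMI (13.5 to 29.2), against 4.76% of Endo cells (0.993 to 13.3). By this share Vip at 10.8% (3.03 to 25.4), L5NP at 7.89% (1.66 to 21.4) and Micro at 6.90% (0.846 to 22.8) did not stand apart from L5PT. The intervals of the other labels lay below that of L5PT. Cells labelled Vip stood at 12.8 (9.81 to 16.3), but from 38 cells and with 43, 20 and 0 UMIs in the regions. A single cell held 26 of these 63 UMIs, and without it the level was 7.83. Sst cells followed at 5.70, L6CT at 4.31 and Pvalb at 4.09, all above IT_A at 2.01 (1.83 to 2.20), Endo at 1.03 and Micro (microglia) at 0.836.

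In the mouse the interneuron labels led for Grik2 and L5PT did not stand out. Pvalb cells had 3.75 (3.06 to 4.55), with 4.59, 5.72, 2.14 and 2.09 in the regions, 2.34-fold above the other labelled cells, where 2.34% of genes were called higher in Pvalb. Lamp5 cells had 4.32, but 10 of their 18 UMIs came from a single cell, without which the level was 2.03. Sst cells had 2.39 (1.81 to 3.09), with 4.14 in region 1 and 0.491 in region 2. L5PT cells had 2.10 (1.72 to 2.55), a 1.29-fold excess, although the cells that also carried the finer type label L5PT_A had 3.11 (2.46 to 3.88). The finer types L6IT_A at 2.81 (2.28 to 3.43), L6CT_C at 2.67 (1.85 to 3.73) and L6CT_B at 2.54 (2.17 to 2.94) overlapped. Type and subclass labels did not always match, as 230 cells of subclass L6CT and 76 of L4 carried the type Micro.

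Grik1 was highest in Sst cells of the mouse, followed by Lamp5, Pvalb and L4 cells. Sst cells had 2.43 (1.85 to 3.14), with 2.01, 2.21, 3.14 and 2.53 in the regions, a 6.70-fold excess that ranked 8th of 13619 genes, where 2.36% were called higher in Sst. Lamp5 cells had 1.20 (0.390 to 2.80), from 5 UMIs, and Pvalb cells had 1.10 (0.744 to 1.57). Vip cells, another interneuron label, were at 0 UMIs in 25 cells, which allows a level of up to 0.902. L4 cells had 0.774 (0.669 to 0.891), with 0.924, 0.465, 0.777 and 0.776 in the regions, 2.60-fold above the rest and rank 37, where 2.40% of genes were called. Within L4 the type L4_A had 1.48 (1.18 to 1.82), L4_B 0.547 (0.413 to 0.710) and L4_C 0.488 (0.211 to 0.961), so L4_A stood apart from both. Above them L2/3 cells had 0.146 (0.0965 to 0.213), and Astro (astrocytes), Micro and Endo ranged from 0.0902 to 0.131. In the opossum GRIK1 had its highest level in Pvalb, with 0.234 (0.125 to 0.400) from 13 UMIs in 9 cells, 6 in region 1, 7 in region 2 and 0 in region 3. The intratelencephalic label IT_B came next, and the intervals of all neighbours in this order overlapped. Opossum Sst cells were at 0 of 234931 UMIs, which allows a level of up to 0.128.

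GRIK4 was spread over many labels in the opossum. Vip cells had 5.07, but 17 of 25 UMIs came from a single cell, and without it the level was 1.66. Astro cells had 2.05 (1.70 to 2.45), with 1.95, 2.41 and 1.48 in the regions, and IT_A cells had 2.04 (1.86 to 2.23), with 2.46, 1.91 and 1.31. L6CT at 0.832 (0.663 to 1.03), Sst at 0.681 and IT_B at 0.519 (0.259 to 0.928) were lowest. In the mouse Grik4 was highest in L6IT cells at 1.10 (0.858 to 1.38), with 1.45, 1.05, 0.871 and 0.493 in the regions, 2.31-fold above the other labelled cells, where 1.81% of genes were called, although region 4 at 0.493 was no higher than all V1 cells of that region at 0.505. L6CT cells were next among labels with over 100 cells at 0.761 (0.644 to 0.891), and Sst at 0.206 and Pvalb at 0.221 were lowest. Mouse Grik5, among labels with over 100 cells, lay between 0.610 in L5IT (0.325 to 1.04) and 1.60 in L6IT (1.31 to 1.94), and L4 at 0.934 (0.818 to 1.06) and L2/3 at 1.02 (0.879 to 1.18) also had intervals below that of L6IT. L6b at 2.18, from 8 UMIs, and Lamp5 at 1.68, from 7 UMIs, were higher in labels with few cells.

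**Figure D4:**
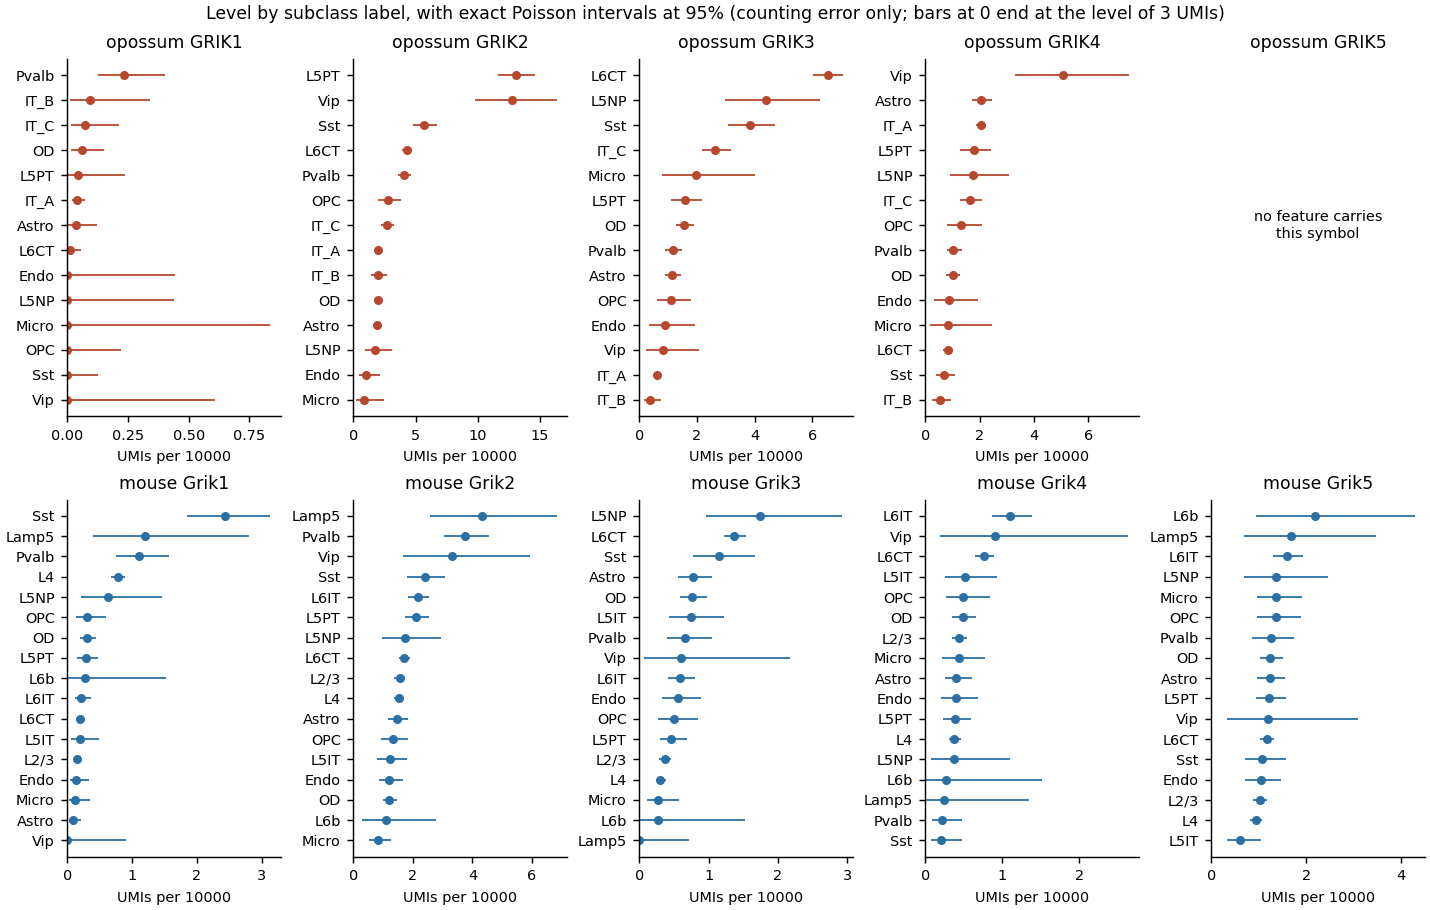
Level of each subunit (UMIs per 10000) in every subclass label with at least 25 V1 cells, ordered from highest to lowest, for the opossum (upper row) and the mouse (lower row). Bars are exact Poisson intervals for counting error, with bars at 0 ending at the level of 3 UMIs. L6CT leads for opossum GRIK3 at 6.53, L5PT for opossum GRIK2 at 13.1 and Sst for mouse Grik1 at 2.43, while for mouse Grik5 the intervals of L6IT at 1.60 and L5IT at 0.610 lie apart.

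To see whether depth profiles only followed the labels, the cells of each label were split at their median depth in each region. Opossum GRIK4 changed inside IT_A, the label of the upper layers. The shallower IT_A cells had 3.16 and the deeper ones 0.835 (log2 -1.92, -2.26 to -1.59), and the regions went from 3.67 to 1.13, from 3.25 to 0.508 and from 1.71 to 0.885. Of 797 shallower cells 133 held a GRIK4 UMI, and of 799 deeper cells 66 did. The finer labels inside IT_A were also unlike for GRIK4. It had 2.62 in finer label 1 and 2.31 in finer label 3. Finer labels 4, 5 and 6 lay between 0.332 and 1.17. Whether the mix of finer labels changed with depth was not tested. GRIK3 rose inside IT_A, from 0.366 to 0.835 (log2 1.19, 0.66 to 1.74). GRIK3 also rose inside IT_C, from 1.20 to 3.44 (log2 1.52, 0.78 to 2.33), and inside Sst, from 2.22 to 5.21 (log2 1.23, 0.54 to 1.97), with every region in the same direction for each label. Inside L6CT it did not, with 6.68 and 6.41 (log2 -0.06, -0.29 to 0.17).

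Opossum GRIK2 changed inside L6CT where GRIK3 did not. The shallower L6CT cells had 2.53 and the deeper ones 5.74 (log2 1.18, 0.87 to 1.5), going from 2.67 to 6.14, from 3.16 to 5.77 and from 1.44 to 5.11 in the regions. In the labels IT_A and IT_B it ran the other way, from 2.28 to 1.71 in IT_A and from 2.97 to 1.14 in IT_B. In L5PT it had 16.1 in the shallower and 10.7 in the deeper cells, but the regions disagreed, and region 3 went from 0.947 to 12.1. GRIK4 in IT_C rose from 0.669 to 2.22, which rested on region 1, where it went from 0.359 to 4.16.

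Mouse labels were split in the same way. Grik3 in L6CT went from 1.10 to 1.62 (log2 0.57, 0.21 to 0.93) and Grik4 from 0.553 to 0.951 (log2 0.78, 0.29 to 1.29), each with region 2 in the other direction. Grik2 in L6CT fell from 1.96 to 1.46 (log2 -0.43, -0.74 to -0.11), lower in the deeper cells of all 4 regions. In L4 Grik2 rose from 1.30 to 1.70 (log2 0.38, 0.08 to 0.69), in all 4 regions. Grik3 in Astro cells went from 6 UMIs (0.238) to 37 UMIs (1.22), an increase that regions 1, 2 and 3 shared and that has no ratio in region 4.

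**Figure D5:**
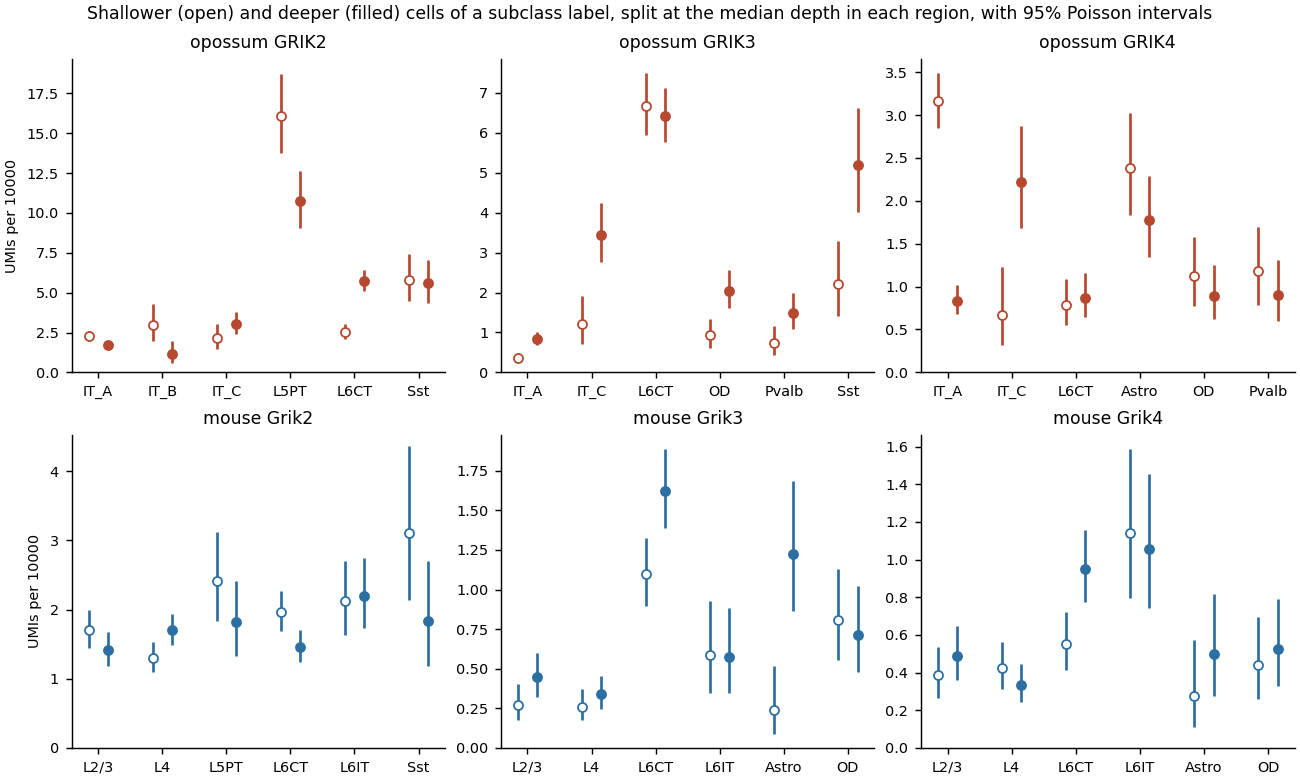
Level of Grik2, Grik3 and Grik4 (UMIs per 10000) in the shallower cells (open circles) and deeper cells (filled circles) of 6 subclass labels per panel, split at the median depth in each V1 region, with exact Poisson intervals at 95%. Opossum GRIK4 falls from 3.16 to 0.835 in IT_A, opossum GRIK2 rises from 2.53 to 5.74 in L6CT, and opossum GRIK3 is at 6.68 and 6.41 in L6CT.

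Cells labelled OD lay deep (median 0.693 of the way down in opossum V1 and 0.822 in mouse V1), and the ratios were computed again without them. The deep over top log2 ratio was then 3.03 for opossum GRIK3, 0.91 for GRIK2 and -0.97 for GRIK4, and 1.82 for mouse Grik3 and 0.72 for Grik4. With these cells the ratios were 2.91, 0.80, -1.01, 1.78 and 0.69.

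The genes with the depth profile most like that of each member were found by correlation of levels. Over 30 points (10 bins in 3 regions), the 3 genes of 6554 most like opossum GRIK3 were ENSMODG00000031561 (Pearson r 0.904), PCP4L1 (0.900) and MBP (0.894), the last a myelin protein. Over 40 mouse points, the 3 of 9092 genes most like Grik3 were Hs3st2 (0.861), Pcp4 (0.845) and Gm49948 (0.841). Opossum GRIK4 was most like the adhesion molecule CADM1 (0.753), DTNBP1 (0.680) and the metabotropic glutamate receptor GRM5 (0.680), and GRIK2 was most like KCNMB4 (0.712). The nearest genes were Dpy19l3 for mouse Grik4 (0.754), Atcay for Grik1 (0.652), Slc4a4 for Grik2 (0.593) and Ptges3 for Grik5 (0.657). The points share a library and an animal, so these values describe likeness and carry no test. Among the members the highest r was 0.506, between opossum GRIK2 and GRIK3, and GRIK3 and GRIK4 had -0.322.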

How the data were processed

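With the Stereo-seq Analysis Workflow the authors mapped mouse reads to GRCm39 and those of the opossum to a genome of their own whose gene models reach farther 3′, and deposited UMI counts per gene and segmented cell without normalization, with positions, V1 regions, a quality flag and transferred class and subclass labels. Cells in a V1 region that passed the authors' flag were used here, 4806 of 4820 in the opossum and 9127 of 9134 in the mouse. Relative depth ran along the smallest rectangle around a region, with the top end set by the labels IT_A or L2/3 and the bottom end by L6CT. UMIs were summed over cells and given per 10000, with exact Poisson, binomial and conditional binomial intervals at 95%. Members and lists were chosen with earlier results of these data known. Named genes are the members, a list of 10 partners, a list of 13 other ionotropic receptors (by counts and up to 4 examples of the largest ratios, with NETO1, C1ql3 and Dlg4 added after their values were seen), layer genes, and the 3 genes most like each member over region and depth bin, among genes with at least 200 UMIs, on log2(level + 0.05). The finer type labels are the authors'. Listed genes not named enter only the counts and medians of their list, and 1 listed receptor gene is not reported here by name or in a figure. Labels with at least 25 cells were described, and labels with at least 100 cells were split by depth. Thinning to 300 UMIs left out 156 opossum and 130 mouse cells. The alternatives were other filters, thinning, glutamatergic cells alone, depth by rank, 2 parts in place of 3, the mean of cells, a fold of 2, other minimum UMIs, first-round labels, and each V1 region left out. The ratio was also run on simulated counts with 200 changed genes per species, and no outcome of that run is used here. Mouse coordinates come from GENCODE vM39. Of 30613 opossum features 11598 carry a symbol, and the listed genes DLG1, PICK1, GRIP1, ADARB1, GRIN2D and GRIN3A are not analysed here in the opossum. Computations were run with Python 3.11.15 and its libraries pandas 2.3.3, scipy 1.17.1 and numpy 2.4.6, and plots with matplotlib 3.10.9.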

Additional observations from a re-analysis of the deposited data

Results flagged for a closer look

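Grik4 stood out because the species ran in opposite directions. The deep over top log2 ratio was -1.01 for GRIK4 in the opossum, with -1.0, -1.17 and -0.61 in its regions, and 0.69 for Grik4 in the mouse, with 0.77, 0.51, 0.75 and 0.61. In the mouse the glutamatergic cells went from 0.440 to 0.85, while nonneuronal cells had 0.461 and 0.495. The difference was not tested, since each species had 1 animal. With each cell counted once the ratios were -0.44 and 0.54, still opposite in sign. Inside the label of the top of V1, the deeper over shallower log2 ratio was -1.92 (-2.26 to -1.59) for GRIK4 in opossum IT_A cells and 0.34 (-0.32 to 1.02) for Grik4 in mouse L2/3 cells. These labels are not matched in depth, with a median relative depth of 0.244 for IT_A and 0.175 for L2/3. The paper describes IT_A as somewhat more broadly spread than L2/3. The share of IT_A cells holding a GRIK4 UMI also fell from the shallower to the deeper cells, but by a smaller factor.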

How the results depend on the processing

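No paired analysis was possible because the 2 groups are single animals of different species and no result comes from a test. The deep over top log2 ratios of GRIK2, GRIK3, GRIK4, Grik1, Grik3, Grik4 and Grik5 kept their sign under every alternative run. Grik2 changed sign when thinned or with each cell counted once, and GRIK1 did so in 3 of 12 alternatives. In glutamatergic cells alone GRIK2 was at 1.02, GRIK3 at 3.44 and Grik1 at -0.86. With 2 parts in place of 3, GRIK2 was at 0.63, GRIK3 at 2.19 and Grik3 at 1.42. The mean of cells gave 2.56 for GRIK3, and thinning gave 2.23 for Grik3. Some alternatives were chosen after seeing the data, because UMIs lay unevenly over cells. With each cell counted once GRIK2 was at 0.37, GRIK3 at 1.97, GRIK4 at -0.44 and Grik2 at -0.16, and without its 10 richest cells GRIK4 was at -0.69. Leaving out a V1 region gave 0.69 to 0.89 for GRIK2, 2.81 to 3.08 for GRIK3, -1.08 to -0.91 for GRIK4, -0.72 to 0.80 for GRIK1, -0.63 to -0.20 for Grik1, 1.76 to 1.85 for Grik3 and 0.63 to 0.72 for Grik4.

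The counts of genes called moved by construction with the fold and the minimum of UMIs. With a fold of 2, 345 opossum genes were higher and 367 lower, and 229 mouse genes were higher and 329 lower. With at least 200 UMIs the opossum had 404 higher and 456 lower genes and the mouse 320 higher and 412 lower. With at least 1 UMI the opossum had 1498 higher and 1743 lower genes, and the mouse 1355 lower genes. With a region left out, and so fewer regions to share a direction, they were 1187 to 1270 higher and 1132 to 1285 lower in the opossum, and 737 to 942 higher and 969 to 1141 lower in the mouse. Of 1068 recomputed levels by subclass 169 moved beyond their counting interval, and of 435 ratios inside a label 51 did. Depth limits GRIK1, with 39 UMIs, and labels of under 50 cells.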
